A study of Homo sapiens with 12 samples.

Results

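The comparison described here is the difference between 2 responses to temozolomide in U251, an established human glioblastoma cell line: the response of cells with a hairpin against CD44 minus the response of cells with a control hairpin. For each gene it was computed on the log2 scale as knockdown with temozolomide minus knockdown with DMSO, minus the same change in control cells. All 12 libraries of the series entered, in 4 groups of 3, and 12821 of 20289 genes passed a filter on low counts. Control cells, of genotype WT, are titled shCtrl in the DMSO libraries and NC in the temozolomide libraries, and NC was read as the control hairpin. Knockdown cells, of genotype CD44 knockdown, are titled shCD44, and hairpins were delivered by lentivirus. Both kinds of cell received either 50 µM temozolomide (TMZ) or the solvent DMSO for 24 h. The labels do not state how many hairpins or clones were used, nor whether the 3 libraries of a group came from separate cultures, so p-values measure only the spread between these libraries, which may be technical.

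Temozolomide methylates DNA. The methylated guanine it leaves is repaired by MGMT or else mispairs and is recognised by the mismatch repair proteins, which can arrest or kill the cell. CD44 is a surface receptor for hyaluronan, a sugar polymer of the extracellular matrix, and is used as a marker of the mesenchymal state of glioblastoma. The difference of responses asks whether the drug moves a gene by another factor when CD44 RNA is low, so a gene can be far apart between the 2 kinds of cell and still have a difference near 0.

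The libraries held 13506900 to 24758000 estimated counts. CD44 stood at 1127, 1102 and 1043 CPM (counts scaled to the same total in every library) in control cells with DMSO and 851, 808 and 804 with temozolomide, against 421, 419 and 419 in knockdown cells with DMSO and 319.8, 326 and 333 with temozolomide. Every knockdown library was below every control library. The difference of its responses was 0.05 (SE 0.05, edgeR adjusted p = 0.67), and 1.96 SE on each side ran from -0.05 to 0.14. Of the glial line markers, VIM, NES, SOX2 and SOX9 were expressed, whereas GFAP, the filament protein that defines astrocytes, was near 0 at 0.242 to 1.8 CPM. The leukocyte genes CD3E and AIF1 and the myelin gene MOG had 0 counts in every library. Other members had a few counts: the leukocyte gene PTPRC reached at most 0.737 CPM, CD14 0.254, ITGAM 0.2 and the myelin gene MBP 0.778. The summed level of the leukocyte and microglia list was 13.9 to 27.4 CPM. The epithelial keratin KRT14 was present at 55.98 to 269.8 CPM and the endothelial cadherin CDH5 at 12.2 to 46.2 CPM. The endothelial genes PECAM1 and VWF reached at most 0.915 and 0.468 CPM.

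Few genes passed the test of the difference. By the quasi-likelihood test of edgeR, adjusted over all genes after Benjamini and Hochberg, 135 genes passed an adjusted p of 0.05, which is 1.05% of those tested. The response of knockdown cells was higher for 56 of them (0.437%) and lower for 79 (0.616%). The drug itself changed 27.5% of genes in control cells, with 1505 higher (11.7%) and 2024 lower (15.8%), and 22.3% in knockdown cells, with 1160 higher (9.05%) and 1694 lower (13.2%). Scaling by library totals alone, which moved the median of all genes to 0.06 and 0.07, turned these splits to 2870 higher and 1295 lower, and to 2533 higher and 1078 lower. The 2 responses share no library, and 1642 genes passed in both, which is 46.5% of the control calls and 57.5% of the knockdown calls. Of these, 1621 moved in the same direction and 21 in opposite directions. Across genes, which are not independent replicates, the responses correlated with Pearson r = 0.37 and Spearman rho = 0.52.

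The differences that passed were small. Their median size was 0.31 on the log2 scale, 21 reached 0.5 and 6 reached 1. The median SE over all genes tested was 0.10, so that 1.96 SE of a typical gene was 0.19 either way. At an unadjusted p of 0.05, 2279 genes passed. Among the 79 lower genes, 45 had responses of opposite sign, 28 went down in both kinds of cell and further in knockdown cells, and 6 went up in both and further in control cells. Among the 56 higher genes, 34 had responses of opposite sign, 19 went down in both and further in control cells, and 3 went up in both and further in knockdown cells. These counts go by the sign of the fitted responses, whether or not each response passed its own test.

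**Figure D1:**
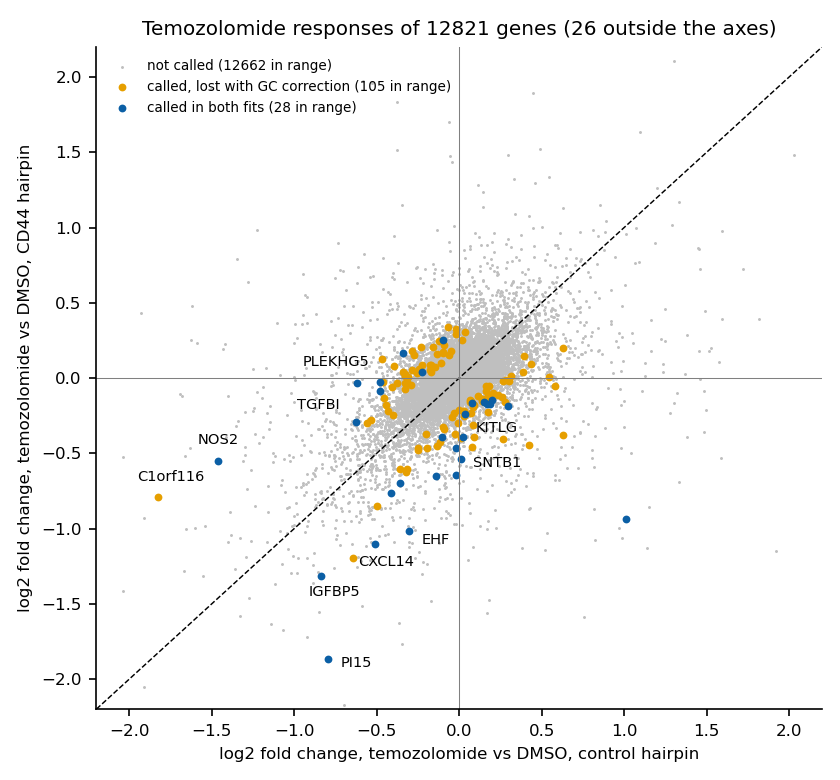
Each point is 1 of the 12821 genes tested, placed by its log2 fold change with temozolomide in control cells (x axis) and in CD44 knockdown cells (y axis). Coloured points passed the test of the difference; genes with a lower response in knockdown cells, such as IGFBP5, EHF, CXCL14 and PI15, lie below the line of equal responses, and NOS2, PLEKHG5 and TGFBI lie above it.

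The number of calls depended on single libraries. It was 22, 272 and 133 without control DMSO 1, 2 and 3, and 25, 67 and 31 without knockdown DMSO 1, 2 and 3. It was 395, 19 and 28 without control temozolomide 1, 2 and 3, and 76, 91 and 394 without knockdown temozolomide 1, 2 and 3. With relative log expression scaling the split of 56 higher and 79 lower became 45 and 107. On the scale of log2(FPKM + 1), limma called 3 genes, NOS2, RBM3 and IGFBP5.

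The difference followed the GC content of genes. In genes with a GC content under 35% the median difference was -0.14, between 45% and 50% it was 0.01, and at 60% or more it was 0.15. Genes above 60% stood 0.25 above genes below 40%, over 1726 and 2137 genes. This contrast was -0.21 in the response of control cells and 0.04 in that of knockdown cells. It also differed between libraries of a group. The level of genes above 60% relative to genes below 40% was 0.15, 0.07 and 0.22 in the DMSO libraries of control cells, and with temozolomide it was 0.04, -0.08 and -0.13. In knockdown cells it was -0.06, -0.03 and -0.08 with DMSO and 0.08, 0.00 and -0.12 with temozolomide. The median GC content was 59.1% for the 56 higher genes and 39.0% for the 79 lower genes, against 47.9% for all genes tested.

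**Figure D2:**
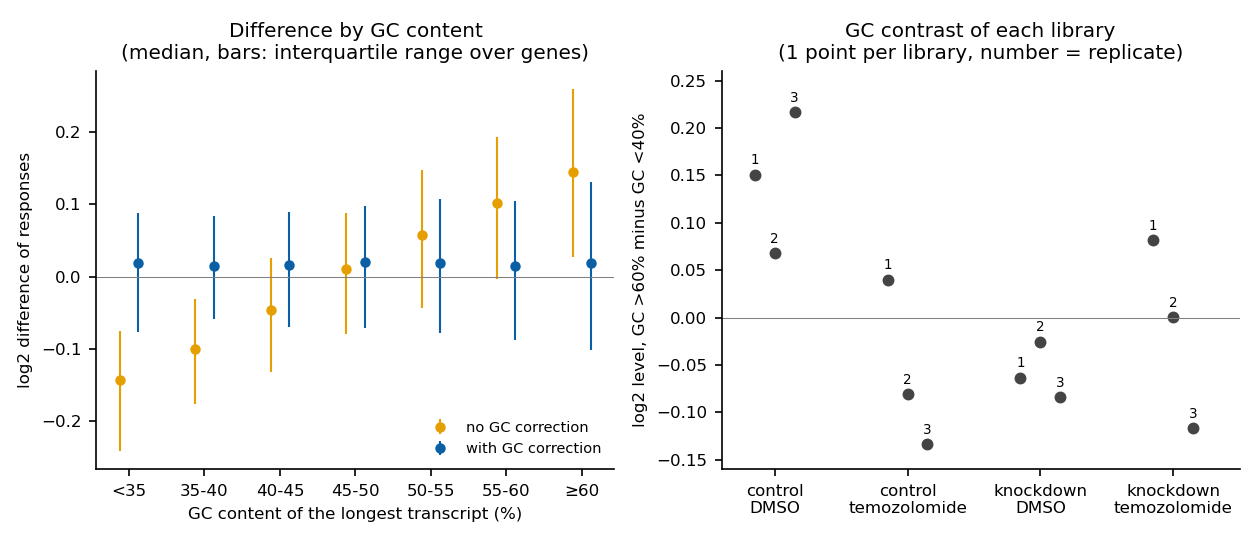
Left, the median log2 difference of responses (points) with its interquartile range over genes (bars) in 7 bins of GC content, without and with the correction; the uncorrected medians climb from -0.14 to 0.15 and the corrected ones lie between 0.01 and 0.02. Right, the log2 level of genes above 60% GC minus that of genes below 40% GC, with 1 point for each of the 12 libraries, from -0.13 to 0.22.

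When the GC trend of each library was removed by a spline before the fit, the contrast became 0.003 and 35 of 12782 genes passed (0.274%), 11 higher (0.0861%) and 24 lower (0.188%). Of the 135 genes, 29 remained, 9 higher and 20 lower, and 106 were lost. With this correction, leaving out 1 library at a time gave 10 to 71 calls. The genes called without and with the correction are described first, and they were singled out after their values were seen. The calls of NOS2, C4B, KITLG, IGFBP5, EHF, CXCL14, EDIL3 and SNTB1 held in each of 26 edgeR fits, namely both on all libraries and the 24 that left out 1 library. In bulk RNA, fewer cells that express a gene and less of its RNA per cell cannot be told apart.

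IGFBP5, CXCL14 and PI15, which are secreted, had a lower response in knockdown cells. IGFBP5 (ENSG00000115461, chromosome 2, 216672105 to 216695525, minus strand of GRCh38 in GENCODE 29) binds insulin-like growth factors outside the cell. In control cells its level was 1272, 1401 and 1324 CPM with DMSO and 769.6, 714 and 751 with temozolomide. In knockdown cells it was 738, 805 and 769 with DMSO and 302, 309 and 321 with temozolomide. Control temozolomide and knockdown DMSO overlapped, control DMSO was above them and knockdown temozolomide below. The drug changed IGFBP5 by -0.84 (SE 0.04) in control and -1.31 (SE 0.04) in knockdown cells, a difference of -0.47 (SE 0.06, edgeR adjusted p = 0.000664). CXCL14 (ENSG00000145824, chromosome 5, 135570679 to 135579279, minus strand), a chemokine, had 346, 364 and 397 CPM in control cells with DMSO and 255, 263 and 258 with temozolomide, against 168, 178 and 159.6 in knockdown cells with DMSO and 71.6, 92.7 and 69.4 with temozolomide. No group overlapped another, and the difference was -0.59 (SE 0.10, edgeR adjusted p = 0.00868). PI15, a secreted protease inhibitor, fell from 21.6, 21.96 and 25.2 to 11.5, 14.9 and 13.6 CPM in control cells and from 13.1, 13.3 and 14.1 to 3.23, 4.49 and 3.16 CPM in knockdown cells. Its difference was -1.07 (SE 0.18, edgeR adjusted p = 0.00657). With the GC correction it was -0.89, and there the call held without 3 of the 12 libraries.

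For KITLG and EDIL3 the drug response passed the test in knockdown cells and not in control cells. KITLG (ENSG00000049130, chromosome 12, 88492793 to 88580851, minus strand) is the ligand of the receptor kinase KIT. It lay at 175, 179.6 and 169 CPM in control cells with DMSO, 166, 177 and 189.9 in those with temozolomide and 175, 179 and 179.8 in knockdown cells with DMSO, and these 3 groups overlapped. Knockdown temozolomide was below all of them at 129, 135 and 146 CPM. The response was 0.02 (SE 0.05) in control and -0.39 (SE 0.05) in knockdown cells, and the difference -0.41 (SE 0.07, edgeR adjusted p = 0.00657). EDIL3 (ENSG00000164176, chromosome 5, 83940554 to 84384793, minus strand), an integrin-binding matrix protein, was highest in knockdown DMSO, at 202, 207 and 199 CPM. The other 3 groups overlapped, with 138, 148 and 138 and 133, 140.4 and 145 CPM in control cells with DMSO and temozolomide, and 138, 153 and 149 CPM in knockdown cells with temozolomide. Its difference was -0.45 (SE 0.06, edgeR adjusted p = 0.00211), and -0.33 with the GC correction. PRSS35, a secreted protein related to serine proteases, went from 35.7 ± 0.302 to 22.6 ± 2.35 CPM in knockdown cells and from 108 ± 8.47 to 98.7 ± 7.66 CPM in control cells (mean ± SD, n = 3). Its difference of -0.51 was lost without control DMSO 1, knockdown DMSO 1 or 3, control temozolomide 2 or 3, or knockdown temozolomide 1.

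EHF (ENSG00000135373, chromosome 11, 34621093 to 34661057, plus strand) is an ETS family transcription factor of epithelial cells. It stood at 414, 446 and 423 CPM in control cells with DMSO and 333, 347 and 361 with temozolomide, against 205, 213 and 205 in knockdown cells with DMSO and 89.1, 119 and 97.3 with temozolomide. The 4 groups did not overlap. The drug changed EHF by -0.30 (SE 0.06) in control and -1.02 (SE 0.07) in knockdown cells, a difference of -0.71 (SE 0.09, edgeR adjusted p = 0.00073). The basal keratin KRT14 went from 249, 258 and 269.8 to 194, 192 and 197 CPM in control cells and from 104, 113 and 101 to 55.98, 65.8 and 65.5 CPM in knockdown cells, again without overlap. Its difference was -0.35 (SE 0.07, edgeR adjusted p = 0.027). That call was lost without control DMSO 1, knockdown DMSO 1 or 2, control temozolomide 2 or 3, or knockdown temozolomide 1, and with the GC correction it held without each library in turn. KRT14 has close relatives among the keratins, so its counts are uncertain where reads could be shared. Of 9 tested epithelial markers, KRT14 was the 1 called, beside 1.05% of all genes, and the median difference of the list was -0.01. With the GC correction 2 of the list were called lower, KRT14 and the keratin KRT5, beside 0.188% of all genes, and the median was -0.08. DESeq2 called 2 of the list, beside 373 genes in all, and so did the fit with a replicate block, beside 222. The summed level of that list was 1731 to 1788 CPM in control DMSO, 1258 to 1306 in control temozolomide, 1104 to 1224 in knockdown DMSO and 707 to 812 in knockdown temozolomide. Of its defining markers, EPCAM and CDH1 reached at most 0.215 and 0.12 CPM, and the part of such cells in the EHF and KRT14 results was not tested.

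SNTB1 and FILIP1L belong to the cell cortex and cytoskeleton. SNTB1, a syntrophin that anchors membrane proteins to dystrophin, had 32.9, 35.9 and 33.5 CPM in control cells with DMSO, 35.1, 32.5 and 35.3 in those with temozolomide and 30.1, 29.9 and 30.8 in knockdown cells with DMSO. It was lowest in knockdown temozolomide, at 19.3, 22.03 and 21.1 CPM, and the difference was -0.55 (SE 0.09, edgeR adjusted p = 0.00657). FILIP1L, related to a filamin-binding protein, went from 29.2, 32.1 and 31.2 to 19.5, 21.8 and 17.4 CPM in knockdown cells. There it came to overlap control cells, which had 20.9, 20.7 and 20.5 with DMSO and 20.01, 21.05 and 20.3 with temozolomide. Its difference was -0.63 (SE 0.11, edgeR adjusted p = 0.0103). With the GC correction that call of FILIP1L held without 6 of the 12 libraries. PALM2AKAP2, an anchor for protein kinase A, went from 183 ± 1.11 to 163 ± 0.939 CPM in knockdown cells and from 94.5 ± 0.442 to 99.9 ± 1.76 CPM in control cells (mean ± SD, n = 3). That difference of -0.25 was lost without control DMSO 1, knockdown DMSO 1, or control temozolomide 2. COL11A1, a fibrillar collagen chain, fell from 707, 799 and 718 to 564, 589.6 and 582 CPM in control cells and from 513, 555 and 516 to 307, 355 and 313 CPM in knockdown cells. Its difference of -0.34 was lost without control DMSO 1, any knockdown DMSO library, control temozolomide 2 or 3, or knockdown temozolomide 1.

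**Figure D3:**
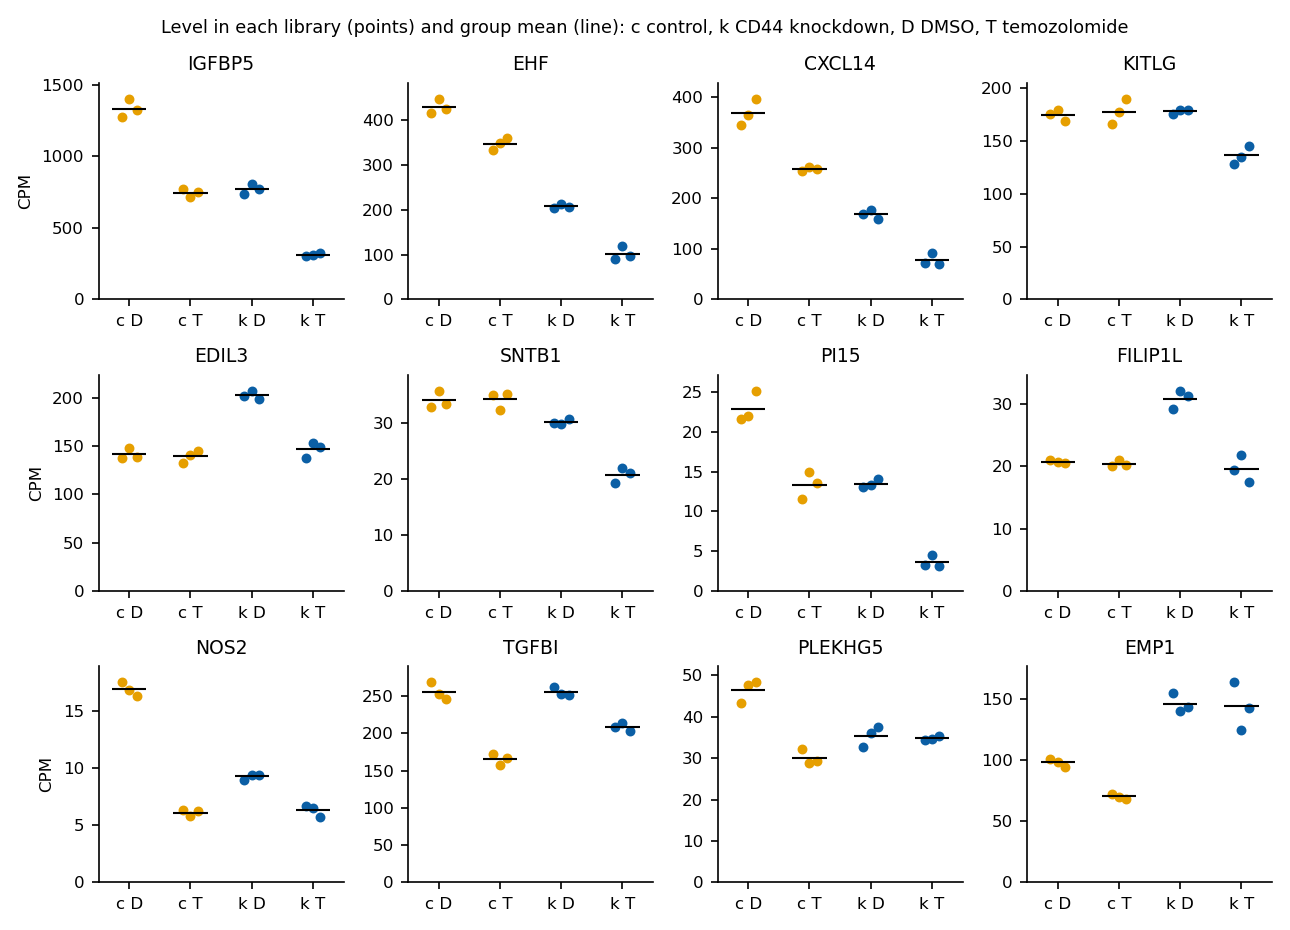
Level in CPM of 12 genes in each of the 12 libraries (points) with the group means (lines), for control and CD44 knockdown cells with DMSO or temozolomide. The first 8 genes had a lower response in knockdown cells (EHF falls there from 208 ± 4.63 to 102 ± 15.7 CPM, mean ± SD, n = 3) and the last 4 a higher one (NOS2 falls from 16.9 ± 0.616 to 6.1 ± 0.26 CPM in control cells).

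Another group of genes rose in control and fell in knockdown cells. SOD2, the mitochondrial superoxide dismutase, went from 133, 129.9 and 141 to 147, 145 and 155 CPM in control cells and from 219, 218 and 220.0 to 191, 194 and 204 CPM in knockdown cells. The groups did not overlap, and the difference was -0.31 (SE 0.05, edgeR adjusted p = 0.0111). With the GC correction that of SOD2 was -0.24 and held without 1 of the 12 libraries. TMEM65, a protein of the inner mitochondrial membrane, changed by 0.19 (SE 0.05) in control and -0.17 (SE 0.04) in knockdown cells, a difference of -0.36. With the GC correction its call held without 4 of the 12 libraries. HNRNPA2B1 and TAF15, which bind RNA in the nucleus, shared this rise in control and fall in knockdown cells. HNRNPA2B1 went from 967 ± 22.2 to 1089 ± 46.7 CPM in control and from 1013 ± 15.002 to 898 ± 72.9 CPM in knockdown cells (mean ± SD, n = 3). Its difference of -0.34 was lost without control temozolomide 2, and with the GC correction the call held without 5 of the 12 libraries. TAF15 had a difference of -0.34, lost without control DMSO 1, any knockdown DMSO library, control temozolomide 2 or 3, or knockdown temozolomide 1 or 2.

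The cold-induced RNA-binding protein RBM3 fell in knockdown cells, from 585, 584 and 573 to 492, 482 and 499.6 CPM, and had 562, 538 and 575, then 560.2, 589 and 568 CPM in control cells, where the groups overlapped. Its difference was -0.28 (SE 0.05, edgeR adjusted p = 0.00683). SPTSSA, a small subunit of the enzyme that starts sphingolipid synthesis, rose in control cells by 0.30 (SE 0.07) and had a response of -0.19 (SE 0.07, edgeR adjusted p = 0.0588) in knockdown cells. Its difference of -0.48 was lost without control DMSO 1, knockdown DMSO 1 or 3, or control temozolomide 2 or 3.

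On the other side, genes with a higher response in knockdown cells included NOS2 (ENSG00000007171, chromosome 17, 27756766 to 27800499, minus strand), the inducible nitric oxide synthase. With DMSO it had 17.5, 16.8 and 16.3 CPM in control and 8.99, 9.4 and 9.41 in knockdown cells. After temozolomide the 2 kinds of cell overlapped, with 6.29, 5.81 and 6.21 CPM in control and 6.65, 6.5 and 5.74 CPM in knockdown cells. The responses were -1.46 (SE 0.10) and -0.55 (SE 0.10), a difference of 0.91 (SE 0.14, edgeR adjusted p = 0.00505). TGFBI, a matrix protein induced by TGF-beta, showed another order. Its DMSO groups overlapped, at 269, 253 and 246 CPM in control and 263, 253 and 250.8 in knockdown cells, and with temozolomide it stood at 172, 158 and 167 in control and 208, 214 and 203 in knockdown cells, without overlap. The difference was 0.34 (SE 0.06, edgeR adjusted p = 0.00783).

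PLEKHG5, an exchange factor for the GTPase RHOA, fell from 43.2, 47.6 and 48.4 to 32.1, 28.8 and 29.4 CPM in control cells and had 32.8, 36.01 and 37.6, then 34.4, 34.6 and 35.3 CPM in knockdown cells, where the groups overlapped. The difference was 0.59 (SE 0.09, edgeR adjusted p = 0.00423), and with the GC correction the call held without 6 of the 12 libraries. EMP1, an epithelial membrane protein, fell from 101, 98.2 and 94.5 to 72.2, 69.9 and 68.3 CPM in control cells, whereas its knockdown libraries overlapped at 155, 140.0 and 143 with DMSO and 164, 125 and 143 with temozolomide. Its difference of 0.45 (SE 0.10, edgeR adjusted p = 0.0272) was lost without control DMSO 1, knockdown DMSO 2 or 3, or control temozolomide 2 or 3. HMGA1, an architectural chromatin protein, fell from 373 ± 16.3 to 267 ± 21.1 CPM in control cells and had 388 ± 2.65 and 365 ± 27.9 CPM in knockdown cells (mean ± SD, n = 3). That difference, 0.39, was lost without control DMSO 1, knockdown DMSO 3, or control temozolomide 2 or 3. P3H1, which hydroxylates prolines of collagen, rose in knockdown cells from 42.8 ± 1.51 to 50.8 ± 0.37 CPM and had 47.8 ± 1.62 and 44.7 ± 0.986 CPM in control cells (mean ± SD, n = 3). Its difference, 0.35, was lost without knockdown DMSO 1 or 3, or control temozolomide 2. HM13, a signal peptide peptidase, had a difference of 0.27, lost without control DMSO 1, knockdown DMSO 1 or 3, or control temozolomide 2 or 3.

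Another 3 calls made without and with the correction are uncertain as gene identities. ANKHD1-EIF4EBP3 is a readthrough of neighbouring genes, whose reads cannot be told apart from theirs, and its difference of 0.50 was lost without control DMSO 1, knockdown DMSO 1, control temozolomide 2, or knockdown temozolomide 2. C4B, a complement factor, had 21, 20 and 19 counts in control cells with DMSO and 0, 3 and 0 with temozolomide, against 28, 29 and 34 in knockdown cells with DMSO and 24, 54 and 40 with temozolomide. Its fitted difference of 4.80 rests on libraries with 0 counts and is no bound. The near-identical gene C4A had 35, 34 and 57 counts in control cells with DMSO and 60, 46 and 48 with temozolomide, against 76, 102 and 128 in knockdown cells with DMSO and 85, 64 and 46 with temozolomide, and reads could be split between C4A and C4B in either way. A gene that the deposited table lists without a symbol (ENSG00000249773), a coding gene on chromosome 7 that GENCODE 29 tags as an overlapping locus, had 8, 10 and 12 counts in control cells with DMSO and 31, 22 and 22 with temozolomide, against 22, 27 and 30 in knockdown cells with DMSO and 15, 20 and 7 with temozolomide. Its difference of -1.95 (SE 0.43, edgeR adjusted p = 0.0369) was lost without control DMSO 1, any knockdown DMSO library, control temozolomide 2 or 3, or knockdown temozolomide 1.

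Of the 12 largest differences in each direction among genes of at least 5 CPM in their highest group, several did not pass with the GC correction. Among the lower ones these were MSANTD3-TMEFF1 at -1.01 (SE 0.22), PCDHB9 at -0.87 (SE 0.19), GAR1 at -0.67 (SE 0.16), RAB33B at -0.63 (SE 0.14), RIPOR2 at -0.55 (SE 0.13), ARL15 at -0.54 (SE 0.12) and IFIH1 at -0.54 (SE 0.13). RIPOR2, an inhibitor of the GTPase RHOA, went from 30.99, 35.5 and 34.01 to 20.7, 20.7 and 23.01 CPM in control cells and from 13.1, 11.8 and 11.6 to 5.51, 5.21 and 5.17 CPM in knockdown cells. MSANTD3-TMEFF1 is a readthrough and PCDHB9 a member of a cluster of similar protocadherins, so both are uncertain. Among the higher ones the calls lost were C1orf116 at 1.03 (SE 0.24), UPP1 at 0.59 (SE 0.13), GRAMD1A at 0.48 (SE 0.11), PTDSS2 at 0.47 (SE 0.10), SLC4A11 at 0.44 (SE 0.09), AKAP17A at 0.44 (SE 0.08), MFSD12 at 0.43 (SE 0.08) and ATG2A at 0.41 (SE 0.08). AKAP17A is annotated in the same sequence on X and Y, so its counts are uncertain. The uridine phosphorylase UPP1 fell from 18.6, 18.5 and 17.7 to 13.1, 13.9 and 12.6 CPM in control cells and had 22.1, 23.3 and 19.8, then 27.1, 20.7 and 23.5 CPM in knockdown cells. C1orf116 fell from 10.9, 10.9 and 10.8 to 2.73, 3.33 and 3.22 CPM in control and from 3.13, 4.18 and 3.05 to 1.8, 2.34 and 1.72 CPM in knockdown cells. With the correction the adjusted p in edgeR was 0.057 for UPP1 and 0.0965 for C1orf116. Each of these 15 calls was lost when some single library was left out, and held without 3 to 8 of the 12.

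Interferon-stimulated genes formed the list with the median difference farthest from 0. Cells that sense viral RNA or interferon switch these antiviral genes on through a promoter element bound by IRF and STAT factors. The promoters of 3 called genes of the interferon lists are shown because they hold the letters of this element: IFIH1, a sensor of double-stranded RNA, EIF2AK2, the kinase PKR that stops translation, and SAMD9, an antiviral effector. The windows are RefSeq sequence on GRCh38.p14, read along the gene from 250 bases before to 15 bases after its start, all on the minus strand: chr2:162318670-162318934, chr2:37156966-37157230 and chr7:93117965-93118229. Capitals mark matches on either strand to GAAA, any 2 bases, then GAAA.
IFIH1: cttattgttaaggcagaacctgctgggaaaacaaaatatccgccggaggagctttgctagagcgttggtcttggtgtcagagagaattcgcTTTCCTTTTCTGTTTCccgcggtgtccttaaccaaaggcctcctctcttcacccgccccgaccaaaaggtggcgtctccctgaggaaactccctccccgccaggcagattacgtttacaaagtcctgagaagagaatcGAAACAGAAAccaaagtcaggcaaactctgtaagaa
EIF2AK2: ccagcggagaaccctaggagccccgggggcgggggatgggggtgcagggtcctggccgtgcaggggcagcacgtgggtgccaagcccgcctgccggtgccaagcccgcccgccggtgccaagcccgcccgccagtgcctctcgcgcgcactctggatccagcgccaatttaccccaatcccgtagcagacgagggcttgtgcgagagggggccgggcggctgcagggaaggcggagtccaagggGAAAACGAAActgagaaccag
SAMD9: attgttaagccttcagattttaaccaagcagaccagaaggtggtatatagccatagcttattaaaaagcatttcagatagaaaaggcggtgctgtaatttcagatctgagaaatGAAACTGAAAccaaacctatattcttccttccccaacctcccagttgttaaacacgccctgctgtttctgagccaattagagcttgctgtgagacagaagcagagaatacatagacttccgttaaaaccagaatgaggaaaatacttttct
IFIH1 holds 3 matches, of which 2 overlap, and the match of EIF2AK2 begins 6 bases before the start. A match is a description of these letters and not a site. In windows of 250 bases before to 50 after the start, 80.6% of the 36 interferon effector genes with a RefSeq window held the letters, against 2.84% of the 10278 tested genes with one. They were present in 7 (11.5%) of the 61 windows of lower genes, among them the 3 shown, and in 0 of the 42 of higher genes. Of the lower genes called without and with the GC correction, 0 of 13 windows held them. Effectors with the letters had a median difference of -0.35 (29 genes) and those without them -0.52 (7 genes). Other motifs were counted too, in windows of lower genes against all tested. The kappaB site was in 3.28% against 0.564%, and the cell cycle homology region in 16.4% against 9.94%. The TEAD site was in 13.1% against 10.8%, and the AP-1 site in 4.92% against 4.5%. The E-box was in 9.84% against 9.86%, and the antioxidant response element in 9.84% against 14.8%.

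IFIH1 had 28.2, 28.1 and 24.03 CPM in control cells with DMSO and 27.98, 27.8 and 28.7 with temozolomide, against 44.9, 52.98 and 47.9 in knockdown cells with DMSO and 41.8, 32.1 and 32.2 with temozolomide. EIF2AK2 had 213, 224 and 189, then 214, 229 and 222 CPM in control cells, and 284, 296 and 291, then 267, 215 and 221 CPM in knockdown cells. SAMD9, which has a close copy in SAMD9L, had 89.03, 101 and 80.7, then 94.6, 94.8 and 98.1 CPM in control cells, and 144, 161 and 148, then 136, 105 and 104 CPM in knockdown cells. In each of the 3 genes, control cells overlapped between DMSO and temozolomide, and knockdown temozolomide lay below knockdown DMSO, with library 1 the highest of its group. The differences were -0.54, -0.40 and -0.48, with edgeR adjusted p = 0.0426, 0.0388 and 0.0474. None of the 3 passed with the GC correction. The calls of IFIH1 and EIF2AK2 were lost without control DMSO 1 or 3, any knockdown DMSO library, control temozolomide 2 or 3, or knockdown temozolomide 2, and that of SAMD9 also without knockdown temozolomide 3.

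Of 46 tested interferon effectors, 2 were lower (EIF2AK2 and SAMD9) and 0 higher, against 0.616% and 0.437% of all genes. DESeq2 called 3, beside 373 genes in all, and 28 had an unadjusted p under 0.05, beside 2279 of the 12821 genes tested. Their median difference was -0.38 (interquartile range -0.73 to -0.22), with 41 below 0, against a median of 0.01 over all genes tested. The drug lowered 27 of them and raised 0 in knockdown cells, beside 13.2% and 9.05% of all genes. In control cells it lowered 6 and raised 4, beside 15.8% and 11.7%. The fall in knockdown cells was from a raised level, as the median knockdown effect on the list under DMSO was 1.25 on the log2 scale. IFIT1, which binds foreign RNA, had 9.48, 18.9 and 9.99 CPM in control cells with DMSO and 18.4, 13.7 and 17.8 with temozolomide, against 58.8, 72.95 and 61.1 in knockdown cells with DMSO and 62.9, 25.1 and 29.9 with temozolomide. Its difference of -1.12 (SE 0.37) did not pass (edgeR adjusted p = 0.119). MX1, an antiviral GTPase, had 12.8, 12.7 and 11.5, then 11.1, 9.98 and 10.7 CPM in control cells, and 36.3, 40.2 and 33.2, then 31.6, 12.6 and 13.1 CPM in knockdown cells, with a difference of -0.73 (edgeR adjusted p = 0.231). In both genes library 1 of knockdown temozolomide was far above libraries 2 and 3, and both were chosen after their values were seen.

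Knockdown temozolomide 1 stood apart from libraries 2 and 3 for this list. The median change of the 46 effectors from the DMSO libraries of the same hairpin was 0.02, 0.00 and -0.04 in control temozolomide 1, 2 and 3, and -0.06, -0.70 and -0.62 in knockdown temozolomide 1, 2 and 3. Library 1 was the highest of its group for 45 of 46 genes. The summed level of the list was 1921 CPM in library 1 and at its lowest 1351 CPM in the other 2, beside 1961 to 2097 CPM in knockdown DMSO and 1048 to 1213 CPM in control DMSO. Without knockdown temozolomide 1, 21 of 46 effectors were called lower, beside 0.418% of all genes, with a median of -0.61. With the GC correction as well 21 were called, beside 0.334%, and the median was -0.56, whereas with that correction 0 were called without each of the other 11 libraries. In the uncorrected fit without knockdown temozolomide 1, IFIT1 had a difference of -1.64 (edgeR adjusted p = 0.00111) and MX1 of -1.30 (edgeR adjusted p = 6.4e-05). That library stood out by the values of these same genes. The calls and p-values without it therefore describe those values and are not an independent test. The uncorrected count was 8 without control DMSO 2 (1.45% of all genes lower), 2 without control temozolomide 1 (1.43%) and 3 without knockdown temozolomide 3 (1.64%). It was 0 without each of the other 8 libraries, where 0.1% to 0.749% of all genes were lower and the medians of the list were -0.25 to -0.40. Control DMSO 2 was itself above control DMSO 1 and 3 for some effectors. OAS1 had 3.98 CPM there against 1.78 and 2.23, and IFI44L 10.2 against 6.19 and 4.99. MX1 did not show this, with 12.7 against 12.8 and 11.5 CPM. What sets library 1 of knockdown temozolomide or library 2 of control DMSO apart was not tested.

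**Figure D4:**
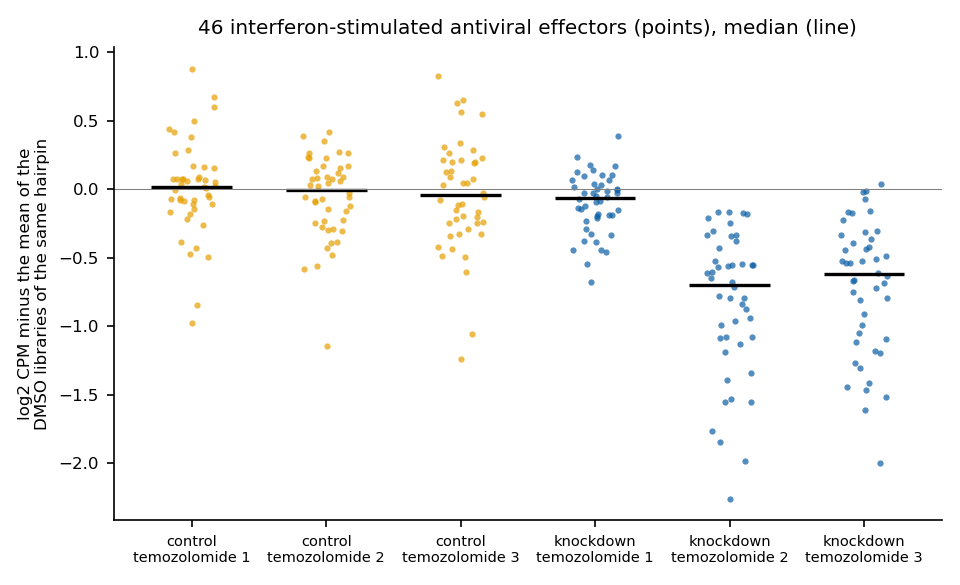
Change of the 46 interferon-stimulated antiviral effectors (points) in each temozolomide library, as log2 CPM minus the mean of the DMSO libraries with the same hairpin, with the median as a line. The medians are 0.02, 0.00 and -0.04 in control cells and -0.06, -0.70 and -0.62 in knockdown cells. In this change from DMSO, not in level, knockdown library 1 lies near the control libraries. Its summed level for the list was 1921 CPM, beside 1961 to 2097 CPM in knockdown DMSO and 1119 to 1124 CPM in control temozolomide.

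The list of interferon sensors and signalling genes had 1 of 23 members called lower, IFIH1, beside 0.616% of all genes, and a median of -0.07. MHC class I genes, which present peptides to T cells, had 0 of 21 called by edgeR without the GC correction, 3 at an unadjusted p under 0.05, 1 by DESeq2 and a median of -0.08, with 19 below 0. Of the 12821 genes tested, 2279 were under that unadjusted p, and DESeq2 called 373 genes in all. With the correction 1 of the MHC list, the proteasome activator PSME1, was called lower, beside 0.188% of all genes. The median of the list was then -0.12. NF-kB targets and cytokines had 1 of 28 called lower, SOD2, beside 0.616% of all genes, and a median of -0.07.

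Lists of p53 targets, cell division and DNA repair had no called member without or with the GC correction, beside 1.05% and 0.274% of all genes. Of the 12821 genes tested, 2279 had an unadjusted p under 0.05, and DESeq2 called 373 genes in all. Of 35 p53 targets 0 were called by edgeR, with 11 at an unadjusted p under 0.05, 2 called by DESeq2 and a median difference of 0.00. Of 54 mitosis genes 0 were called by edgeR (7 unadjusted, 1 by DESeq2). The drug raised 23 of them in control and 21 in knockdown cells, beside 11.7% and 9.05% of all genes. With library totals as the scaling it raised 34 and 39, beside 22.4% and 19.8%. The median difference was -0.01 before and 0.05 after the GC correction. Of 48 genes of DNA replication 0 were called by edgeR (14 unadjusted, 3 by DESeq2), with a median of 0.04. Mismatch, base excision and alkylation repair genes had 0 of 29 called by edgeR (4 unadjusted, 0 by DESeq2) and a median of 0.04. Break and crosslink repair genes had 0 of 44 called by edgeR (4 unadjusted, 1 by DESeq2) and a median of 0.02. Of 21 BCL2 family and apoptosis regulators 1 was called lower, XIAP, beside 0.616% of all genes, and 0 were with the GC correction.

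Members of the following 3 lists fell with the drug in both kinds of cell, where 15.8% of all genes fell in control and 13.2% in knockdown cells. A difference of responses was called for 1.05% of all genes. Of 36 ribosome biogenesis and MYC target genes, 24 fell in control and 22 in knockdown cells. The differences of GAR1, a protein of small nucleolar particles, and of the spermidine synthase SRM were called, in opposite directions. Of 49 collagens and matrix genes, 27 fell in control and 24 in knockdown cells, and COL11A1 was the 1 with a called difference. Of 37 hypoxia and glycolysis genes, 19 and 18 fell, and the enolase ENO1 was called with a difference of 0.16 (SE 0.04). Its level went from 4325 ± 70.9 to 3269 ± 33.1 CPM in control and from 3835 ± 66.2 to 3237 ± 57.1 CPM in knockdown cells (mean ± SD, n = 3). With library totals as the scaling, where 10.1% and 8.41% of all genes fell, these counts were 15 and 18 for ribosome biogenesis, 23 and 17 for collagens and matrix, and 16 and 12 for hypoxia and glycolysis. The 3 lists are examples. In the main fit 15 of 29 YAP and TAZ targets fell in each kind of cell. Of 16 mesenchymal transition and cadherin genes 11 fell in control and 10 in knockdown cells, and of 54 mitosis genes 3 and 1. Library totals gave 10 and 13, 9 and 9, and 0 and 0.

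Over all 42 lists, 21 of 1171 tested genes were called, beside 1.05% of all genes, and 24 lists had no called member. The other called members were, on the lower side, the growth factor TGFB2 at -0.29, the cholesterol synthesis enzyme HMGCS1 at -0.29, the integrin ITGAV at -0.28, the shedding protease ADAM10 at -0.27, the caspase inhibitor XIAP at -0.25 and the cystine carrier SLC7A11 at -0.25. On the higher side they were the focal adhesion adaptor PXN at 0.30, the heat shock factor HSF1 at 0.34, SRM at 0.34, the fatty acid synthase FASN at 0.27, the protease ADAM15 at 0.22 and the proteasome subunit PSMD3 at 0.22. SLC7A11 rose with the drug in both kinds of cell, by 0.39 (SE 0.04) in control and 0.15 (SE 0.04) in knockdown cells. TGFB2 fell in both, from 104 ± 3.72 to 83.4 ± 1.36 CPM in control and from 119 ± 3.15 to 78.3 ± 5.19 CPM in knockdown cells (mean ± SD, n = 3). None of these 12 genes nor ENO1 passed with the GC correction, and each of these calls was lost without control DMSO 1.

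**Figure D5:**
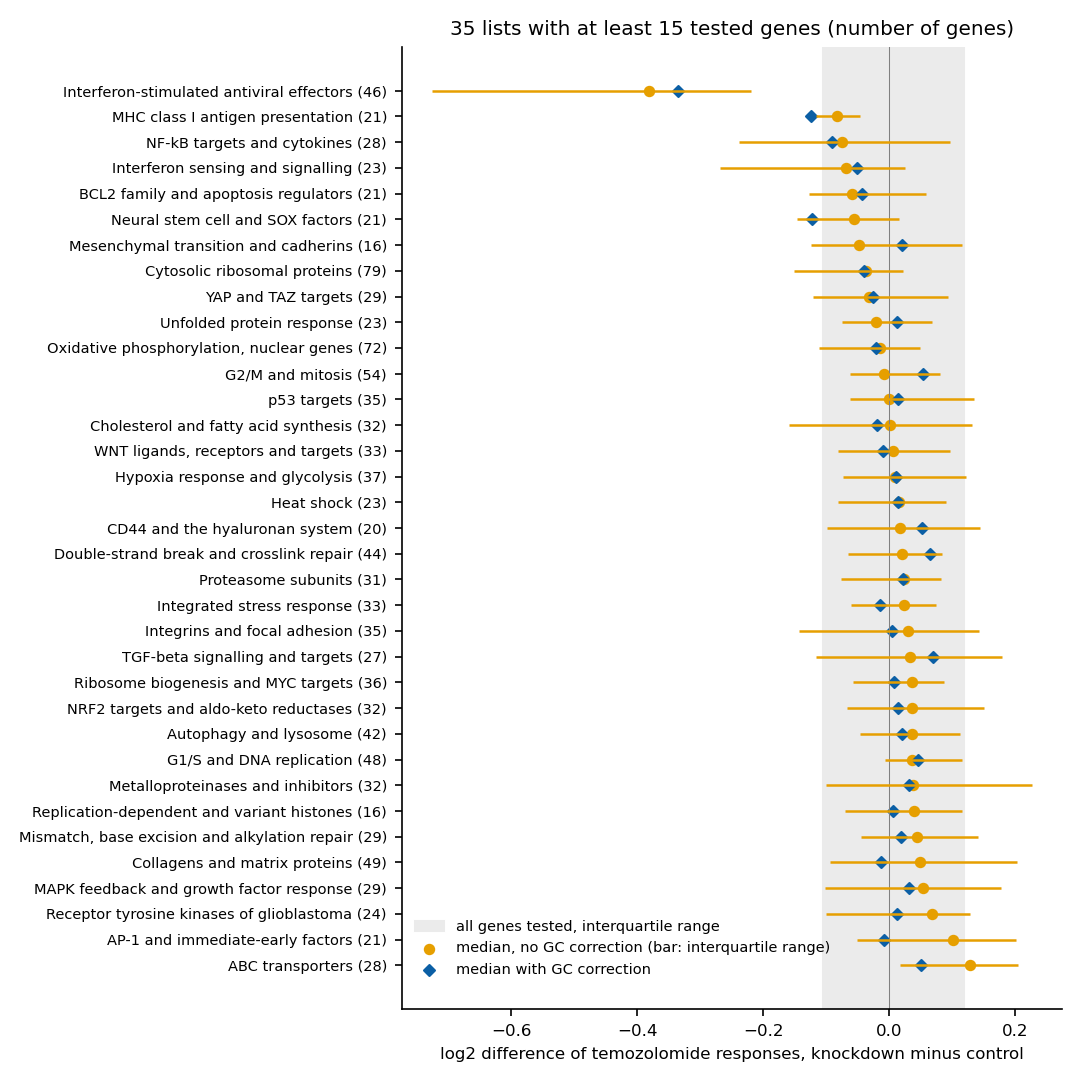
Median log2 difference of responses for the 35 lists with at least 15 tested genes, without (circles, bars are the interquartile range over genes) and with the GC correction (diamonds); the grey band is the interquartile range of all genes tested, -0.10 to 0.12. The interferon effectors stand at -0.38, and the uncorrected medians of the other lists lie between -0.08 and 0.13.

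Genes of the drug response and of glioblastoma cell state that were named whatever their values had no called difference. CDKN1A, the cell cycle inhibitor p21, had 30.9, 30.2 and 30.2 CPM in control cells with DMSO and 32.4, 33.3 and 30.4 with temozolomide, against 32.7, 29.9 and 29.6 in knockdown cells with DMSO and 35.98, 32.97 and 35.6 with temozolomide. Its difference was 0.11 (SE 0.08, edgeR adjusted p = 0.55), with 1.96 SE reaching from -0.06 to 0.27. MSH6, a mismatch repair protein, had a difference of -0.04 (SE 0.05), from -0.14 to 0.05. The stemness factor SOX2 had -0.12 (SE 0.05, edgeR adjusted p = 0.195), the proliferation marker MKI67 0.09 (SE 0.05) and the filament protein VIM 0.13 (SE 0.04, edgeR adjusted p = 0.118). VIM passed when control temozolomide 1 was left out (edgeR adjusted p = 0.0456). MGMT had 0 counts in 11 libraries and 1 count in knockdown temozolomide 2. A count of 3 would be 0.12 to 0.215 CPM, a floor that covers counting error only. MGMT thus lay under what this depth can detect, and it was not tested.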

How the data were processed

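Poly(A) RNA of U251 cells was sequenced in 12 libraries, 4 groups of 3. The authors deposited gene tables of estimated counts and FPKM, per the file headers. The submitters' processing notes name RSEM, HISAT2, StringTie 1.3.1, fastp 0.18.0 and Bowtie2 2.2.8. For the counts, the sources used here name neither genome build nor annotation. Gene positions and GC content came from GENCODE 29 on GRCh38, matched by gene ID (20171 of 20289 genes, and 12782 of the 12821 tested had a GC value).

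Estimated counts, 13506900 to 24758000 per library, were rounded and fitted in edgeR 4.0.16 (R 4.3.3) by quasi-likelihood with 4 group means, trimmed mean of M-values scaling and the default low-count filter, and p-values were adjusted by Benjamini-Hochberg. CPM use the scaled library sizes. Errors are SD over libraries or an SE derived from the edgeR test. That SE is the size of the log2 fold change divided by the square root of its F statistic. The correction for GC content is an offset per library from a spline with 5 degrees of freedom. Replicates differed by more than sampling noise (chi-square per gene 2.14 to 5.05). The fit was also run on simulated counts with planted differences, with no GC trend or the same trend in every control DMSO library. The real GC contrast varied within groups, so the simulation does not test the correction in that setting. Alternatives used DESeq2 1.42.0, limma 3.58.1 on log2 of the deposited FPKM, other scalings and filters, a replicate block and each library left out. Leaving out libraries together with the GC correction was added after seeing the data. Named genes were the 12 largest called differences per direction among genes whose highest group had 5 CPM or more, fixed genes (CD44, MGMT, CDKN1A, MSH6, SOX2, VIM and MKI67), and, chosen after their values were seen, called list members and genes called without and with the correction, of which 1 is not reported here. The comparison and the gene lists were chosen with earlier results of these data known.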

Additional observations from a re-analysis of the deposited data

Results flagged for a closer look

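The test of the difference between the 2 temozolomide responses itself singles out the genes below, 56 higher and 79 lower in all. The log2 difference, knockdown minus control, follows each named gene in parentheses. The genes lower in knockdown cells without and with the correction for GC content were PI15 (-1.07), EHF (-0.71), FILIP1L (-0.63), CXCL14 (-0.59), SNTB1 (-0.55), PRSS35 (-0.51), SPTSSA (-0.48), IGFBP5 (-0.47), EDIL3 (-0.45), KITLG (-0.41), TMEM65 (-0.36), KRT14 (-0.35), TAF15 (-0.34), HNRNPA2B1 (-0.34), COL11A1 (-0.34), SOD2 (-0.31), RBM3 (-0.28), PALM2AKAP2 (-0.25) and the gene without a symbol, ENSG00000249773 (-1.95). Those higher without and with it were HM13 (0.27), TGFBI (0.34), P3H1 (0.35), HMGA1 (0.39), EMP1 (0.45), ANKHD1-EIF4EBP3 (0.50), PLEKHG5 (0.59), NOS2 (0.91) and C4B (4.80). The value of C4B rests on libraries with 0 counts, and its reads may be shared with C4A.

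Lower genes that did not pass with the correction were MSANTD3-TMEFF1 (-1.01), PCDHB9 (-0.87), GAR1 (-0.67), RAB33B (-0.63), RIPOR2 (-0.55), ARL15 (-0.54), IFIH1 (-0.54), SAMD9 (-0.48), EIF2AK2 (-0.40), HMGCS1 (-0.29), TGFB2 (-0.29), ITGAV (-0.28), ADAM10 (-0.27), XIAP (-0.25) and SLC7A11 (-0.25). Higher genes that did not pass with it were ENO1 (0.16), PSMD3 (0.22), ADAM15 (0.22), FASN (0.27), PXN (0.30), HSF1 (0.34), SRM (0.34), ATG2A (0.41), MFSD12 (0.43), SLC4A11 (0.44), AKAP17A (0.44), PTDSS2 (0.47), GRAMD1A (0.48), UPP1 (0.59) and C1orf116 (1.03). ANKHD1-EIF4EBP3 and MSANTD3-TMEFF1 are readthrough genes, and KRT14, PCDHB9, SAMD9 and AKAP17A have close copies, so their reads are uncertain. No explanation of these differences was tested.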

How the results depend on the processing

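None of the calls named by symbol changed direction under any setting run. The GC contrast was below 0 in 8 of the 12 fits that left out a library with the GC correction, and CDKN1A and MSH6, which were not called, changed sign in some fits with that correction. The 56 higher and 79 lower genes became 130 and 243 with DESeq2, 187 and 359 without the low-count filter, 11 and 24 with the GC correction, 17 and 36 with GC content and length corrected, 1 and 2 with limma on log2(FPKM + 1), and 0 and 0 with log2(FPKM + 0.1) (1724 at an unadjusted p under 0.05) and with unfiltered FPKM (1982). They were 4 and 9 at an adjusted p of 0.01, and 255 and 285 at 0.1. Leaving out 1 library gave 5 to 210 higher and 13 to 212 lower, and with the GC correction 2 to 16 and 7 to 58. In control cells the 1505 genes higher with temozolomide became 2870 with library totals and 812 at an adjusted p of 0.01, and 1071 to 1537 with 1 library left out (826 to 1147 with the GC correction). The 2024 lower became 1295 with library totals, 924, 923 and 835 with FPKM + 1, FPKM + 0.1 and unfiltered FPKM, and 1548 to 2053 with 1 library left out (1534 to 2010). In knockdown cells the 1160 higher became 2533 with library totals, 687 with DESeq2, 504 at 0.01, and 733 to 1186 with 1 library left out (967 to 1399). The 1694 lower became 1078 with library totals, 693, 677 and 664 with the 3 FPKM settings, 1074 at 0.01, and 1320 to 1845 with 1 library left out (1471 to 1993). The contrast of 0.25 between genes above 60% and below 40% GC became 0.00291 with the GC correction, 0.00269 with length as well, and 0.207 to 0.306 with 1 library left out (-0.00866 to 0.00409 with the GC correction), by construction of that correction. Other causes were not tested. Of the 57 calls named by symbol, 30 were lost with the GC correction, and 42 without at least 1 library.

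Labels number the libraries of each group 1 to 3, without saying what a number shares. Deviations of the 18 same-numbered pairs correlated with r from -0.077 to 0.14, 1 pair above 0.1, and for 6 of 12 libraries the closest partner bore the same number, so the numbers were not taken as a pairing. With the replicate number as a block, 103 genes were higher and 119 lower, and with the block and the GC correction 15 and 24, where the GC contrast was 0.00178. With 3 libraries per group, differences within 0.19 of 0 were not resolved for a typical gene, even before adjustment over all genes. A call at the adjusted threshold took a larger multiple of the SE, and the median size of the calls was 0.31.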
